A study of Mus musculus with 16 samples.

Results

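The Rag, TSC and Rheb branch of nutrient sensing was followed through 10 genes in the cortex of 5xFAD mice given rapamycin or control diet. They were Tsc1, Tsc2, Tbc1d7, Rheb, Rraga, Rragc, Rragd, Sesn1, Sesn3 and Flcn, taken by symbol from a table of read pair counts for 47593 genes, and 10 of 10 passed the filter on low counts. Choice by name used no measured value, although earlier results of these data were known when the genes were grouped. The 16 libraries fell into 4 groups of 4, namely female control, female rapamycin, male control and male rapamycin. The labels do not say whether a library is 1 mouse, and the study's text mentions pooling of cortical samples, so p values measure the spread between libraries. All mice were 5xFAD, heterozygous for the human transgenes of that line, which the neuronal Thy-1 promoter drives, on a C57BL/6-SJL hybrid background, so no group lacked the transgenes. The diet carried microencapsulated rapamycin, or the carrier alone for the controls, and was fed from 2 to 5 months of age, when the cortex was taken. RNA of the whole cortex was captured by its poly(A) tail, and in such bulk tissue fewer cells of a type and less RNA per cell cannot be told apart.

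These proteins set the activity of mTORC1, the kinase complex that rapamycin inhibits. Growth factor and energy signals act through the TSC complex, in which TSC2 turns off the small GTPase RHEB, TSC1 stabilizes TSC2 and TBC1D7 is the third subunit. Amino acids act through heterodimers of a RagA or RagB GTPase with RagC or RagD, which bring mTORC1 to the lysosome, where RHEB activates it. Sestrins restrain the Rag branch, and folliculin, the product of Flcn, helps to set the nucleotide state of RagC and RagD. In the brain, loss of TSC1 or TSC2 raises mTORC1 activity and causes tuberous sclerosis.

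Counted read pairs ranged from 16393501 to 20593089 per library. By the labels 11 libraries belonged to batch 1, and the other 5, in batch 2, were female control 4, female rapamycin 4 and 5, male control 4 and male rapamycin 4. The library labelled male rapamycin 4 had 9935 counts of Xist and 0 counts of 4 Y-linked genes, which goes against its label. Values without it are given beside some of the results that it moves. Female rapamycin 1, female rapamycin 2 and male rapamycin 2 stood apart with 6.88% to 6.99% of counts on mitochondrial genes, against 2.64% to 5.47% in the other 13 libraries. These 3 libraries also had the most negative exon length slopes, which relate how far each gene lies from its mean log2 CPM (counts scaled to a common library size) to its log2 exon length, at -0.162 to -0.150. The mean slope was 0.0165 in control and -0.0985 in rapamycin libraries of batch 1, and 0.153 and 0.0294 in those of batch 2. Neuronal, astrocyte, oligodendrocyte and microglial markers were counted in the libraries, and no gene of the 10 marker lists was at 0 in all libraries.

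The genes lie on several chromosomes of the mouse genome GRCm38, and their exon lengths in the count table ranged from 1259 bases for Tbc1d7 to 15269 bases for Sesn3. Rraga, Rragc and Rragd are all on chromosome 4. Counting did not use strand, and 578 of the 6018 exon bases of Tsc2 (9.6%) overlap Pkd1 on the opposite strand. For Rragc, 264 of 3341 exon bases (7.9%) overlap 4930535I16Rik on the opposite strand. The exons of the other 8 genes overlap no other listed gene.

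All 10 genes have a promoter in the RefSeq table for GRCm38.p6, which holds 250 bases before and 50 after each start site. The hexamer CACGTG, the core of the element that TFEB and its relatives bind, was searched because these factors answer to RagC, RagD and folliculin. It reads the same on both strands and was found in 3 of the 10 genes, Tbc1d7, Rheb and Rragc, and in 7.15% of the 32851 promoters of the table. The 250 bases before the start site of these 3 genes are given on the strand of the gene, with the hexamer in capitals, at chr13:43171502-43171751 (minus strand), chr5:24842362-24842611 (minus strand) and chr4:123917183-123917432 (plus strand), as the members that hold it.
Tbc1d7: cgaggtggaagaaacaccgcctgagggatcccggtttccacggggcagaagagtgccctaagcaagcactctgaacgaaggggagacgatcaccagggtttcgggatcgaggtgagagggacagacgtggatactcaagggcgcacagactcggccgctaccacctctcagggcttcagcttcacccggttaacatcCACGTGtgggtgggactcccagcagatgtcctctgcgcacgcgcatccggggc
Rheb: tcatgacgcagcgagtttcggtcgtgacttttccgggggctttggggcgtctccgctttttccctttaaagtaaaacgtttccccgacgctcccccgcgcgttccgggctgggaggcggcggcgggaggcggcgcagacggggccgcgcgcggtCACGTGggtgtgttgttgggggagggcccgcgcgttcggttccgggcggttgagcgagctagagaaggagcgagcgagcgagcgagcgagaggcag
Rragc: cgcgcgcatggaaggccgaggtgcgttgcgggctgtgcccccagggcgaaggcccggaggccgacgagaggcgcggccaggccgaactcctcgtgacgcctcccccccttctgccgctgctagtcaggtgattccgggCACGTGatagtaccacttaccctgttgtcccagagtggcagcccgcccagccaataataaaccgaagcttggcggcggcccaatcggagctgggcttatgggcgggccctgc
The hexamer begins 53 bases before the start site in Tbc1d7, 96 bases before it in Rheb and 112 bases before it in Rragc. The forkhead element TGTTTAC, bound by FoxO factors and searched on both strands, was found in a promoter of Sesn1, 23 bases past the start, and in 3.65% of all promoters. The cyclic AMP response element TGACGTCA, which is its own reverse complement, was found in Flcn, 49 bases before the start, and in 1.79% of all promoters. None of the 3 motifs was in the windows of Tsc1, Tsc2, Rraga, Rragd and Sesn3. These letters are a description of the windows, not evidence of binding.

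Scaled to exon length, Rraga stood above the other genes with 71.2 ± 11.6 CPM per kb (mean and SD, n = 16). Its lowest library, at 47.2 CPM per kb, was above the highest library of each other gene. RagA is the partner of either RagC or RagD, and the levels per kb of Rragc (21.4 ± 3.31) and Rragd (20.97 ± 4.01) could not be ordered, since Rragc was the higher in 8 of 16 libraries. Sesn1 followed with 20.3 ± 2.71, Tsc2 with 19.004 ± 4.10 and Rheb with 15.9 ± 2.96 CPM per kb, and the ranges of these neighbours overlapped. Flcn (12.4 ± 0.974), Sesn3 (11.4 ± 2.17) and Tbc1d7 (10.1 ± 1.76) came next, again with overlapping ranges, and Flcn was above Sesn3 in 9 of 16 libraries. Tsc1 was the lowest with 6.79 ± 1.32 CPM per kb and was below Tbc1d7 in 13 of 16 libraries. Tbc1d7 had the fewest counts in each library, 151 to 294, and Sesn3 the most on average, 2156 to 4226, although Rheb had more counts than Sesn3 in 3 libraries.

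**Figure D1:**
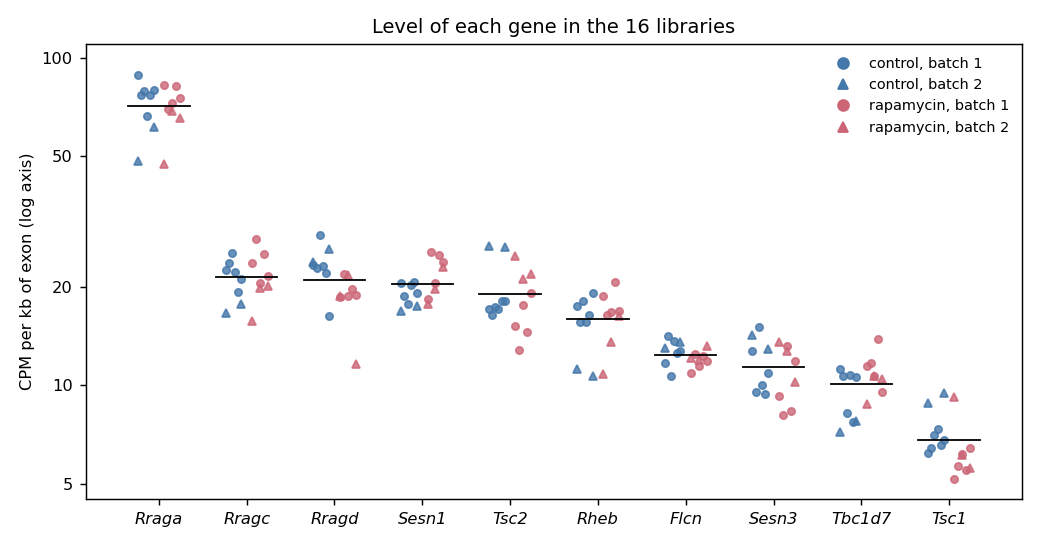
Level of the 10 genes in CPM per kb of exon (log axis), 1 point per library, coloured by diet and shaped by batch, with a line at the mean of 16 libraries. Rraga, at a mean of 71.2, is the only gene whose points do not overlap those of its neighbour in the order.

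The first question was whether rapamycin diet changed the transcripts of this branch in both sexes together. With sex, batch and diet in 1 fit of edgeR's quasi-likelihood test, 0 of the 10 genes passed an adjusted p (Benjamini-Hochberg, over 16553 genes) under 0.05, where 13.3% of all genes tested did, 6.46% higher and 6.86% lower with rapamycin. At an unadjusted p under 0.05 there were 5 of 10, Tsc1, Tsc2, Tbc1d7, Rragd and Sesn1, against 30.4% of all genes tested. DESeq2 in the same design called 3 of the 10, Tsc1 and Rragd lower and Sesn1 higher, against 18.9% of all genes. The median log2 fold change was -0.04 over the 10 genes and 0.02 over all genes tested.

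Tsc1, which encodes hamartin, had 73.5, 75.9, 83.4 and 104 CPM in female controls and 61.3, 66.9, 109 and 72.7 CPM in female rapamycin mice. In males it had 86.8, 77.7, 80.7 and 112 CPM with control diet and 72.8, 65.5, 76.2 and 66.2 CPM with rapamycin. The male groups did not overlap, with or without the library labelled male rapamycin 4. The female groups overlapped through female rapamycin 4 at 109 CPM, a batch 2 library. The log2 fold change was -0.27 ± 0.09 (SE) with an adjusted p of 0.0590, the smallest of the 10 genes. It was -0.23 ± 0.07 in batch 1 alone and -0.44 ± 0.22 in batch 2 alone, neither past the threshold. The library labelled male rapamycin 4, at 66.2 CPM, is in batch 2, and without it the log2 fold change over both batches was -0.22 ± 0.08 (adjusted p = 0.0823). Tsc1 was called, as lower, without female rapamycin 4 (adjusted p = 0.00722) or without male rapamycin 3 (0.0383), and over the 16 fits that left out 1 library each the adjusted p ran up to 0.127. With the exon length slope of each library as a covariate the log2 fold change was -0.01 ± 0.10 (adjusted p = 0.993), and the part of that slope in the Tsc1 value was not otherwise tested.

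Tsc2, the GTPase-activating subunit, had 103, 98.5, 104 and 160.5 CPM in female controls and 91.6, 77.3, 149 and 127 CPM in female rapamycin mice. In males it had 103, 109, 108 and 159 CPM with control diet and 106, 87.2, 115 and 132 CPM with rapamycin. In each group the batch 2 libraries were the highest, and within batch 2 all 3 rapamycin libraries were below both controls. The log2 fold change was -0.17 ± 0.07 (adjusted p = 0.138). With the exon length slope as a covariate it was 0.05 ± 0.07 and thus of the other sign.

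Tbc1d7, the smallest and least counted transcript of the TSC complex, had the opposite direction, at 11.7 ± 2.12 CPM in controls and 13.7 ± 1.92 CPM with rapamycin (SD, n = 8 each). The log2 fold change was 0.27 ± 0.11 (adjusted p = 0.0956), and it was 0.00 ± 0.13 with the exon length slope as a covariate. Tbc1d7 was called in 0 of 26 alternative fits. The 2 larger TSC subunits, with exons of 11833 and 6018 bases, therefore lay below 0 and the small one, at 1259 bases, above it.

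Rheb, the GTPase that the TSC complex turns off, had 119.6 ± 23.7 CPM in controls and 126 ± 23.2 CPM with rapamycin. The log2 fold change was 0.14 ± 0.09 (adjusted p = 0.284). It was -0.02 ± 0.11 with the exon length slope and 0.01 ± 0.12 with the mitochondrial share as a covariate.

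Of the Rag GTPases, Rraga had 117 ± 20.5 CPM in controls and 114 ± 18.05 CPM with rapamycin, with a log2 fold change of 0.02 ± 0.09 (adjusted p = 0.894). Rragc had 70.3 ± 9.91 and 72.8 ± 12.6 CPM, with a log2 fold change of 0.10 ± 0.08 (adjusted p = 0.430). Rragd, the paralog of Rragc, differed more, with 120.2, 118, 149 and 123 CPM in female controls and 96.2, 113, 97.1 and 112 CPM in female rapamycin mice. In males it had 119, 114, 84.0 and 134 CPM with control diet and 96.6, 102, 97.8 and 60.0 CPM with rapamycin. The female groups did not overlap, and in males the control library at 84.0 CPM lay among the rapamycin libraries. The lowest value, 60.0 CPM, was that of the library labelled male rapamycin 4. The log2 fold change of Rragd was -0.31 ± 0.11 (adjusted p = 0.0693), the largest of the 10 genes in size. It was -0.22 ± 0.17 with the exon length slope and -0.35 ± 0.16 with the mitochondrial share as a covariate, so its size was kept more than that of Tsc1 while its adjusted p rose to 0.889 and 0.625. Without the library labelled male rapamycin 4 it was -0.24 ± 0.09 (adjusted p = 0.0978), and without male control 3 it was called, at -0.36 ± 0.10 (adjusted p = 0.0392).

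Because RagC and RagD take the same place in the Rag heterodimer, their ratio was compared within each library, per kb of exon. Rragd to Rragc was 1.03, 0.96, 1.14 and 1.43 in female controls and 0.78, 0.78, 1.20 and 1.09 in female rapamycin mice. In males it was 1.04, 1.14, 0.77 and 1.46 with control diet and 0.91, 0.78, 0.88 and 0.58 with rapamycin. On the log2 scale the ratio was lower with rapamycin by a mean of -0.43 within sex and batch, where libraries of the same group and batch varied with an SD of 0.17. A two-sided exact permutation test over the 1200 assignments of diet within sex and batch gave p = 0.00833, and 0.0250 adjusted over the 3 ratios compared. The difference was -0.28 in batch 1 (exact p = 0.0450 over 200 assignments) and -0.76 in batch 2 (exact p = 0.167, the smallest that its 6 assignments can give). In batch 2 the log2 ratio was -0.79 in the library labelled male rapamycin 4 against 0.55 in male control 4. In the females of batch 2 it was 0.26 and 0.13 with rapamycin against 0.52 in the control, a smaller gap. Without the library labelled male rapamycin 4 the difference over both batches was -0.29 (exact p = 0.0167). Without the 3 libraries of highest mitochondrial share the difference was -0.43 with an exact p of 0.133. Females of batch 1 then had no rapamycin library and did not enter this value, while the library labelled male rapamycin 4 did. The ratio pairs were chosen with earlier results of these data known.

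In both sexes together Sesn1 lay above 0 and Sesn3 below it, neither past the threshold. In males alone both lay above 0, at 0.25 and 0.03. Sesn1, a target of p53 and FoxO factors, had 68.3, 62.3, 59.1 and 56.1 CPM in female controls and 60.8, 85.1, 59.1 and 65.4 CPM in female rapamycin mice. In males it had 67.1, 68.9, 63.6 and 58.2 CPM with control diet and 68.4, 83.2, 78.9 and 76.4 CPM with rapamycin. The groups overlapped in each sex, although 3 of 4 male rapamycin libraries were above all male controls. The log2 fold change of Sesn1 was 0.22 ± 0.07 (adjusted p = 0.0637), and it was called, as higher, without female rapamycin 4 (0.0359) or male rapamycin 1 (0.0392). With the exon length slope as a covariate it was 0.09 ± 0.10. Sesn3, a FoxO target, had 181 ± 33.3 CPM in controls and 167 ± 33.6 CPM with rapamycin, with a log2 fold change of -0.14 ± 0.12 (adjusted p = 0.453). The ratio of Sesn3 to Sesn1 per kb had a median of 0.538 and a range of 0.316 to 0.848 over the 16 libraries. Its log2 value was lower with rapamycin by -0.38 within sex and batch, which did not pass the exact permutation test (p = 0.0642, adjusted 0.0963).

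Flcn varied least, between 46.1 and 61.3 CPM over all libraries. It had 55.1 ± 4.88 CPM in controls and 52.0 ± 2.95 CPM with rapamycin, and its log2 fold change was -0.09 ± 0.06 (adjusted p = 0.348). The ratio of Tsc2 to Tsc1 per kb ran from 2.27 to 3.91, the highest in the library labelled male rapamycin 4. Its log2 value was higher with rapamycin by 0.11, which did not pass the exact permutation test either (p = 0.233, adjusted 0.233).

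**Figure D2:**
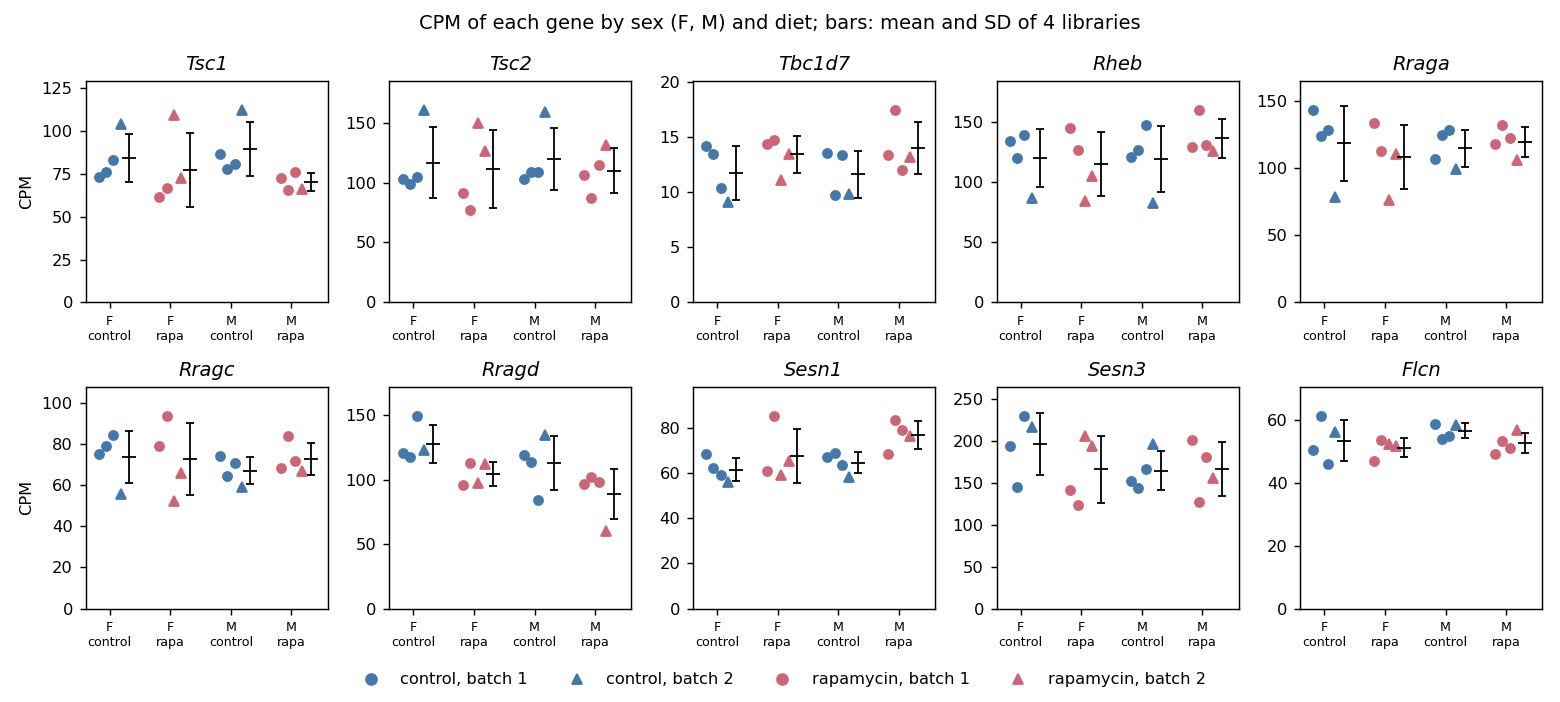
CPM of the 10 genes in each library, by sex (F, M) and diet, with batch by the shape of the point and the mean and SD of 4 libraries beside them. Rragd points of female rapamycin mice lie at 96.2 to 113, below those of female controls, and the batch 2 points of Tsc2 lie above the batch 1 points in every group.

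**Figure D3:**
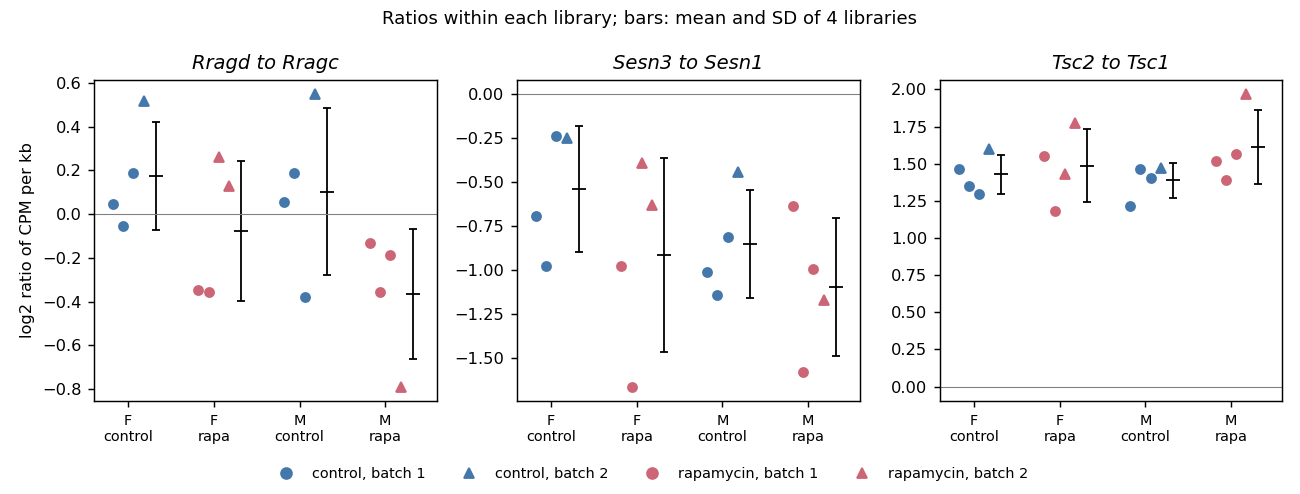
The 3 ratios of CPM per kb on the log2 scale in each library, by sex and diet, with batch by shape and the mean and SD of 4 libraries. The Rragd to Rragc ratio runs from -0.79, in the library labelled male rapamycin 4, to 0.55.

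The second question was whether either sex responded on its own. In females 0 of the 10 genes passed the adjusted threshold, as did 0.0121% of all genes (2 genes, and 2104 without female rapamycin 4). At an unadjusted p under 0.05 were 0 of the 10, against 23.1% of all genes. This count hung on single libraries. It was 3 without female rapamycin 4 (4870 of 16727 genes) and 3 without the library labelled male rapamycin 4 (4070 of 16861 genes). Without any other single library it was 0 or 1. The largest female values were those of Sesn3, at -0.33 ± 0.17 (adjusted p = 0.246), and Tbc1d7 and Rragd, at 0.27 ± 0.16 and -0.27 ± 0.16. In males 0 of 10 passed, as did 0.0% of all genes, and Tsc1 (-0.32 ± 0.13), Rragd (-0.35 ± 0.16) and Sesn1 (0.25 ± 0.11) had an unadjusted p under 0.05, against 12% of all genes. Without the library labelled male rapamycin 4, 0 of the 10 had an unadjusted p under 0.05, as had 1154 of 16861 genes, and the male values of Tsc1, Rragd and Sesn1 were -0.19 ± 0.12, -0.17 ± 0.14 and 0.20 ± 0.12. Without male control 4 it was 0 of the 10 as well, against 1431 of 16813 genes. DESeq2 called 0 of the 10 in either sex, against 9.08% of all genes in females and 0.163% in males. The difference between the sexes was tested by the interaction of sex and diet. It was called for 0 of the 10 genes by edgeR or DESeq2, as for 0.0% of all genes. At an unadjusted p under 0.05 were 0 of the 10, against 2.17% of all genes. Without the library labelled male rapamycin 4 this was 1 of the 10, against 528 of 16861 genes. The interaction was largest for Sesn3 at -0.36 ± 0.23 (female minus male response, edgeR adjusted p = 0.999), with a male value of 0.03 ± 0.16. Between male and female control mice 0 of the 10 genes passed by edgeR or DESeq2, against 0.0121% and 0.0544% of all genes, and 0 had an unadjusted p under 0.05, against 3.55%. The largest of these differences was that of Sesn3, at -0.26 ± 0.16 (male minus female).

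The batches of the labels separated these genes more than diet did, as was so over all genes tested (35.5% and 13.3% called). In the same fit, 5 of the 10 differed between batches, 2 higher and 3 lower in batch 2, against 35.5% of all genes tested, 19.1% higher and 16.5% lower. Tsc2 was higher in batch 2 by a log2 value of 0.58 ± 0.08 (adjusted p = 6.21e-05), and its 5 libraries of batch 2, at 127 to 160.5 CPM, did not overlap those of batch 1, at 77.3 to 115 CPM. Tsc1 was higher in batch 2 by 0.35 ± 0.10 (adjusted p = 0.0104), and by 0.46 ± 0.09 without the library labelled male rapamycin 4. Rheb, Rraga and Rragc, the GTPases of the branch other than Rragd, were lower, by -0.50 ± 0.10, -0.41 ± 0.10 and -0.38 ± 0.09 (adjusted p = 0.000928, 0.00380 and 0.00285). Rheb had 134 ± 12.4 CPM in batch 1 (n = 11) and 96.6 ± 18.5 CPM in batch 2 (n = 5). Without the library labelled male rapamycin 4 its log2 value was -0.60 ± 0.10. Rragd differed by -0.07 ± 0.12, Sesn1 by -0.16 ± 0.08, Sesn3 by 0.24 ± 0.13, Flcn by 0.09 ± 0.07 and Tbc1d7 by -0.29 ± 0.12, none past the threshold. With the exon length slope as a covariate 1 of the 5 calls was left, that of Tsc2 at 0.33 ± 0.08 (adjusted p = 0.0317). With the mitochondrial share 2 were left, those of Tsc2 and Rheb. Over all 16553 genes the 5884 calls between batches fell as well, to 658 and 1703. Among the marker lists, 2 of 6 GABAergic neuron genes were lower in batch 2, where their summed level was 691 to 809.5 CPM against 789 to 1012 CPM in batch 1, and 4 of 6 choroid plexus genes were higher. The choroid plexus sum of male control 4 stood apart at 1928 CPM, while the other 4 libraries of batch 2 had 13.6 to 189 CPM against 23.5 to 321.5 CPM in batch 1, and the medians were 105 and 103 CPM. Also higher in batch 2 were 2 of 5 endothelial, 2 of 5 leptomeningeal and 1 of 6 astrocyte genes. Of the glutamatergic, striatal and blood lists 1 gene each was called higher. Yet only 2 of 6 glutamatergic and 1 of 5 blood genes lay above 0, with list medians of -0.20 and -0.66, against 4 of 6 striatal genes. For oligodendrocytes and for microglia 0 of 6 passed. With diet, 2 of 6 choroid plexus genes, with male control 4 among the controls, and 1 of 6 glutamatergic genes were lower, and 0 passed in the other 8 lists. The part of these markers in the values above was not tested.

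**Figure D4:**
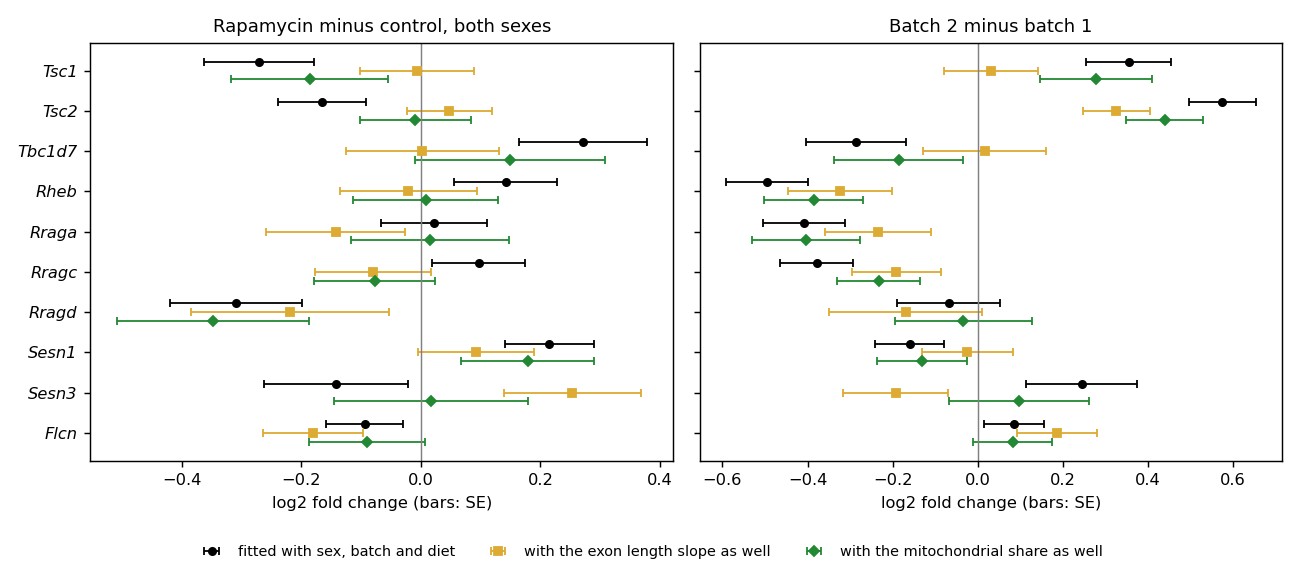
Log2 fold changes of the 10 genes with their SE for diet (left) and batch (right), from the fit with sex, batch and diet and with either covariate of a library (length slope, mitochondrial share) added. The Tsc1 value for diet moves from -0.27 to -0.01 with the slope, and that of Rragd from -0.31 to -0.22.

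In direction for diet, 8 of the 10 genes went with the median of all genes of their exon length. Most of the other pathway genes, described below, did so too. Of these, 12 of 12 under 2 kb and 13 of 20 at 2 to 5 kb lay above 0. So did 9 of 22 at 5 to 10 kb and 0 of 3 over 10 kb. The share of all genes that went with their median was not counted. For diet, the 2 genes with exons of under 2 kb, Tbc1d7 and Rraga, had log2 fold changes above 0, and the median of the 3360 genes of that length was 0.22. Of the 3 genes of 2 to 5 kb, Rragc and Sesn1 were above 0 and Flcn below, where the median of all 7538 genes was 0.05. Of the 3 genes of 5 to 10 kb, Tsc2 and Rragd were below 0 and Rheb above, where the median was -0.09 over 4498 genes. Tsc1 and Sesn3, both over 10 kb, were below 0, at a median of -0.22 over 1157 genes. Rheb was thus the exception among the long genes for diet. For batch, Rheb at -0.50 and Rragd at -0.07 lay below 0, where genes of 5 to 10 kb had a median of 0.13. Flcn, at 0.09, lay above 0, where genes of 2 to 5 kb had a median of -0.03. Across genes, which are not independent replicates and share libraries, Spearman's rho of the log2 fold change with exon length was -0.62 over the 10 genes for diet and -0.43 over all 16553 genes. For batch it was 0.52 and 0.30.

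**Figure D5:**
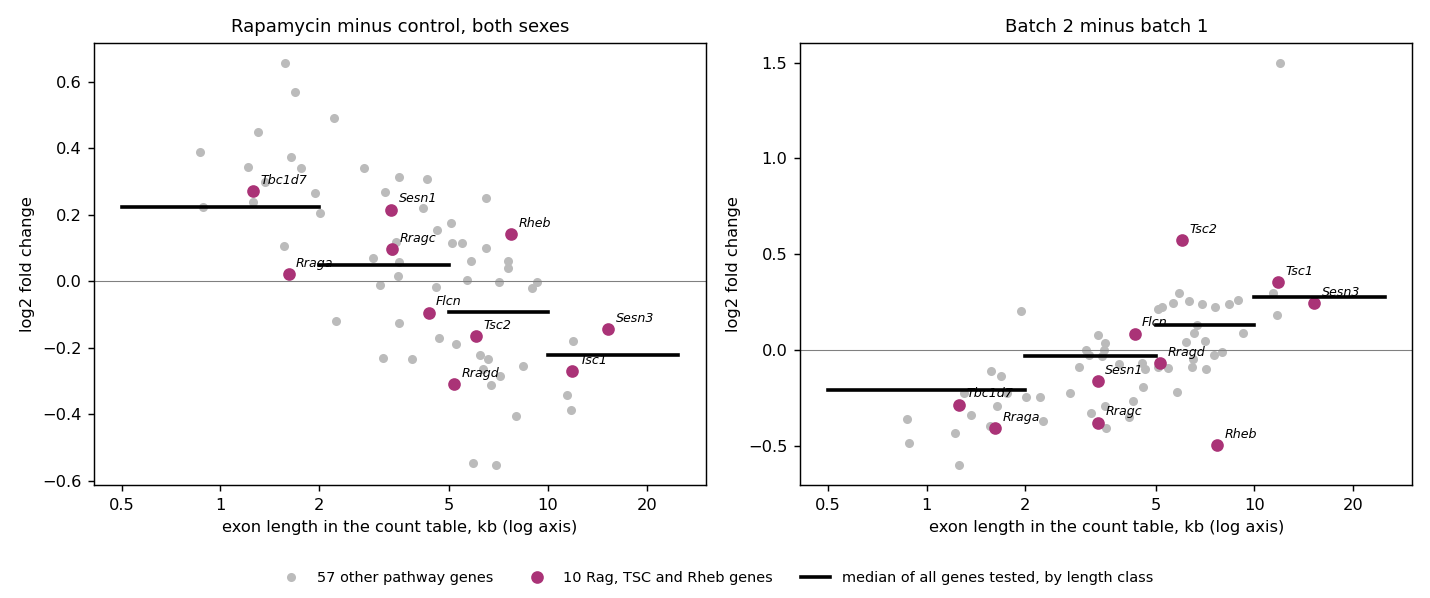
Log2 fold change against exon length (log axis) for diet (left) and batch (right), with the 10 genes named, the other 57 pathway genes in grey and the median of all genes tested in each length class as a bar. For diet the bars fall from 0.22 to -0.22 with length, and for batch they rise from -0.21 to 0.28.

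The genes whose profile was most like that of Tsc1, the member with the smallest unadjusted p for diet, were Usf3, Unc80 and Dmxl1. Their Pearson r with Tsc1, of log2 CPM over the 16 libraries after the mean of each batch was subtracted, was 0.955, 0.948 and 0.947. Spearman's rho was 0.959, 0.921 and 0.929. They were picked as the highest of all genes tested, so no test is given, and their exon lengths are 13050, 15143 and 21860 bases.

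The other genes of the pathway were taken from 10 lists with 61 genes, of which 58 were found and 57 tested. For diet in both sexes 14 of these 57 (24.6%) passed the adjusted threshold, 7 higher and 7 lower, against 13.3% of all genes, and their median log2 fold change was 0.06. Of the Ragulator, the scaffold that holds the Rag GTPases on the lysosome, 3 of 5 subunits rose, Lamtor4 by a log2 value of 0.45 ± 0.09 (22.5 to 30.2 CPM), Lamtor2 by 0.34 ± 0.09 (30.5 to 37.6 CPM) and Lamtor1 by 0.30 ± 0.08 (60.1 to 71.6 CPM). Their exons measure 1302, 1218 and 1366 bases, and 16.3% of all genes under 2 kb were called higher. Of GATOR1, which turns off RagA and RagB, Depdc5 fell by 0.39 on the log2 scale, with exons of 11774 bases, and 27.4% of all genes over 10 kb were called lower. Of AMPK, the energy sensor that phosphorylates TSC2, the catalytic subunit gene Prkaa2 fell by 0.41 and the regulatory subunit gene Prkag1 rose by 0.37 ± 0.09. Lars, the leucyl-tRNA synthetase, fell by 0.23. Of the FoxO targets Pik3ip1, an inhibitor of PI3 kinase, was higher by 0.31 ± 0.07 and Fbxo32, a ubiquitin ligase subunit, fell by 0.55, and of the p53 targets Zmat3 fell by 0.34. The remaining 4 called genes had larger p values and were named after their values were seen. Of these Ddit4, which encodes the TSC activator REDD1, was higher by 0.57 ± 0.17 (37.3 to 55.2 CPM), Gatsl3, the older symbol of the arginine sensor gene Castor1, was higher, and Fnip1, which encodes a partner of folliculin, and Bcl6 were lower. Of GATOR2, KICSTOR and the MiT/TFE factors 0 of 5, 0 of 4 and 0 of 3 genes passed.

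With either covariate, the slope or the mitochondrial share, 0 of these 14 and 0 of all 16553 genes were called for diet by edgeR, with 1048 and 1318 genes at an unadjusted p under 0.05. Lars and Fbxo32 kept their size with the slope, at -0.25 and -0.73 against -0.23 and -0.55 without it, while Lamtor4 went from 0.45 to 0.13 and Depdc5 from -0.39 to -0.14. Without the 3 libraries of highest mitochondrial share, all of them rapamycin, 0 of the 10 pathway genes of smallest p was called, and 1 of all 17233 genes tested was. In females, males, the interaction of sex and diet and the control mice 0 of the 57 genes passed by edgeR. The smallest p values were those of Prkag1 (0.52 ± 0.13) and Fnip1 (-0.39 ± 0.11) in females, Fbxo32 (-0.84 ± 0.18) and Lamtor4 (0.41 ± 0.13) in males, Fbxo32 (0.58 ± 0.26) and Phlda3 (0.50 ± 0.23) for the interaction, and Itfg2 (0.26 ± 0.12) and Phlda3 (0.30 ± 0.16) for control males minus females.

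Between batches 16 of the 57 pathway genes differed, 4 higher and 12 lower in batch 2, against 35.5% of all genes. The Ragulator genes Lamtor1, Lamtor2, Lamtor3 and Lamtor5 were lower, by -0.34 to -0.48, as were Sar1b, Seh1l and Rragb, the paralog of Rraga, at -0.60, -0.41 and -0.37. Of the FoxO and p53 targets Pik3ip1 was lower by -0.27 ± 0.08 and Zmat3 higher by 0.30 ± 0.09.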

How the data were processed

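The values deposited by the authors are counts of read pairs, summed per gene and not normalized, for 16 libraries, with the same counts in 1 table per group, which differed in 0 cells. Per the labels and methods these counts were made with Trimmomatic 0.39, HISAT2 2.2.1 (mm10) and featureCounts 2.0.3 without strand. The labels also name Trim Galore and the build GRCm38.p4, and which trimming tool was used on which reads is not clear. Reads were not used here. Counts were normalized with TMM factors and tested in edgeR 4.0.16 (R 4.3.3) on the 16553 genes that passed filterByExpr (minimum count 10). Terms were sex, batch and diet, or the 4 groups and batch. Called means a Benjamini-Hochberg adjusted p under 0.05. DESeq2 1.42.0, RLE factors, no filter, other batch terms, covariates and left out libraries were alternatives. Depth was 16393501 to 20593089 read pairs. The study's text gives differing numbers of mice and mentions pooled cortical samples, and the 4 libraries per group of the labels were followed. The scripts were tested on simulated counts. Members, lists, ratios and alternatives were chosen with earlier results of these data known. Pathway genes named are up to 10 of smallest p called per comparison, or else 2 (1 result is not reported here), and the 3 genes nearest to the member of smallest p are named. Promoters are RefSeq's for GRCm38.p6.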

Additional observations from a re-analysis of the deposited data

Results flagged for a closer look

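Within each group of 4 libraries, the gap of the highest or lowest library to its neighbour was set against the range of the group, for the 10 genes and the 3 ratios. In 5 of 52 groups a library was set apart by more than Dixon's 95% value of 0.829, where chance sets apart about 1 group in 20. Tsc2 was at 160.5 CPM in female control 4, against 98.5 to 104 CPM in the other female controls, and at 158.6 CPM in male control 4, against 103 to 109 CPM in the other male controls. These are the batch 2 libraries of their groups. Rheb was at 159.9 CPM in male rapamycin 2, a library of high mitochondrial share, against 125 to 130.4 CPM in the others of its group. Rragd was at 149.2 CPM in female control 3, against 118 to 123 CPM, and at 60.0 CPM in the library labelled male rapamycin 4, against 96.6 to 102 CPM.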

How the results depend on the processing

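The number of the 10 genes called for diet in both sexes was 0 in the fit reported, against 13.3% of all genes. It was 3 with DESeq2 (18.9% of all genes) and 2 with no filter on low counts (2626 of 30248 genes). It ran from 0 to 2 when 1 library was left out. It was 0 under the other alternatives, as it was in females, in males, for the interaction and between control males and females under all of theirs. The 5 calls between batches became 1 with the exon length slope and 2 with the mitochondrial share as a covariate, and 4 to 6 with 1 library left out. Over all genes the 5884 calls between batches became 658, 1703 and 4265 to 6211 in these fits. With the exon length slope, 5 of the 10 diet values changed sign, none of them called in either fit. The cause was not tested. Over all genes, the 2205 calls for diet became 142 with no batch term, 1240 in batch 1 alone, 3 in batch 2 alone, 0 with either covariate and 719 (without female rapamycin 1) to 3352 (without female rapamycin 4) with 1 library left out. They became 1 of 17233 genes without the 3 libraries of over 6% mitochondrial counts, all rapamycin, an alternative chosen after seeing the data. In females 2 calls became 1503 with DESeq2, 1678 with no filter, 1290 in batch 1 alone and 1 to 2104 with 1 library left out, the highest without female rapamycin 4.

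Leaving out the same 3 libraries gave a Rragd to Rragc difference of -0.43, no longer past the threshold with fewer samples. The females of batch 1 did not enter it, since no rapamycin library was left there, so its size cannot be set against the value reported. It includes male control 4, at a log2 ratio of 0.55, and the library labelled male rapamycin 4, at -0.79. The Sesn3 to Sesn1 difference ran from -0.48 to -0.27 with 1 library left out and passed an unadjusted exact p only without male rapamycin 1 (p = 0.0183).

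The replicate numbers were not taken to pair the mice, since same-numbered libraries of a sex had correlations of their deviations from the group means from -0.16 to 0.67. With the replicate block in place of batch, 0 of the 10 genes and 1298 of all genes were called for diet, and the log2 ratio differences were -0.40 for Rragd to Rragc (exact p = 0.0469), -0.30 for Sesn3 to Sesn1 and 0.09 for Tsc2 to Tsc1.

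Tbc1d7 rests on the fewest counts, 151 to 294 per library.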
